A study of Sus scrofa with 12 samples.

Results

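The ZBTB genes were taken as every RefSeq mRNA gene of the pig assembly Sscrofa11.1 whose symbol is ZBTB followed by a number, with or without letters after it. This rule gave 42 of 20678 genes and used no measured value. It also took in ZBTB8OS, which encodes archease, a helper of the tRNA ligase complex, and shares only its symbol with the family. It is kept in the counts and described apart. Ejaculates of 3 Duroc boars were each split between fresh sperm (Fs), which was frozen at once for RNA extraction, and frozen-thawed sperm (Fts), which was cooled in a lactose and egg yolk extender, given glycerol, held in liquid nitrogen and thawed. Each group had 3 samples, and RNA was treated in the same way in both, with a Triton X-100 wash against somatic cells and rRNA removal. MeRIP-seq was then run, which recovers RNA fragments that carry N6-methyladenosine (m6A) by an antibody (IP) and sets them against the input RNA of the same sample. Where IP reads stand above input reads, an m6A peak is called, and each of the 6 IP samples had its own list of peaks.

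ZBTB proteins join a BTB domain, by which they pair and bind corepressors, to an array of C2H2 zinc fingers, which bind DNA. Many of them repress genes that set the fate of a cell. ZBTB16, also called PLZF, maintains the stem cells of the male germ line, and ZBTB20, ZBTB1 and ZBTB18 act in liver, lymphoid and neural cells. Mature sperm hold little cytoplasm and are largely silent in transcription, so their mRNA is mostly left over from earlier germ cells. In somatic cells m6A is known for lying in long internal exons and near stop codons. The ZBTB genes have a gene structure with few exons, of which 1 often holds most of the protein. Their longest coding transcripts had a median of 3 exons and 5148 nt, against 7 exons and 2858 nt over all genes. The longest coding part of an exon had a median of 1274 nt in the ZBTB genes and 361 nt over all genes, and it held 71.5% and 32.7% of the coding sequence. At least 1000 nt of coding sequence in 1 exon, called the long coding exon here, was found in 29 of the 42 ZBTB genes (69%) and in 2578 of all genes (12.5%).

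The sequences below come from peak regions of ZBTB18, ZBTB38, ZBTB20 and ZBTB7C. Each is 25 nt long, on the strand of the transcript, and has GGACT in capitals, the form of the m6A consensus that is most often methylated. The ZBTB18, ZBTB38 and ZBTB7C windows lie in regions that had a peak in every sample of a group and in no sample of the other, and each line names how many samples had a peak over the window itself. ZBTB20 was added after its values were seen, for its Fts peak on a long coding exon that had no peak in Fs. Its groups overlap, as Fts1 had no peak there. Regions kept to 1 group on ZBTB1, ZBTB8OS, ZBTB11 and ZBTB4 hold no GGACT and are not shown. The peaks are longer than the windows, so they do not show which site was methylated. Coordinates are on Sscrofa11.1.
ZBTB18, coding sequence of exon 3 of 3, chr10:16918528-16918552, plus strand, 3 Fts samples: ccagcaaaagGGACTtggcggccga
ZBTB18, same exon, chr10:16918963-16918987, plus strand, 2 Fts samples: ctctgagggaGGACTcggtcctgag
ZBTB18, same exon, chr10:16919295-16919319, plus strand, 2 Fts samples: cgccacgagaGGACTcactcgggcg
ZBTB38, coding sequence of exon 5 of 5, chr13:82191608-82191632, plus strand, 3 Fts samples: ctgctgaactGGACTgcgccgtggg
ZBTB20, coding sequence of exon 5 of 6, chr13:145630383-145630407, plus strand, 2 Fts samples: cggggatccaGGACTcgggccagga
ZBTB7C, exon outside the longest coding transcript, chr1:97939100-97939124, minus strand, 3 Fs samples: cctagtcgggGGACTgcaccattgg

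More ZBTB genes had an m6A peak in frozen-thawed than in fresh sperm. A same-strand exonic peak was found in 6, 9 and 8 of the 42 genes in Fs1, Fs2 and Fs3, as the 3 Fs samples are called here, and in 13, 13 and 17 in Fts1, Fts2 and Fts3. Every Fts sample lay above every Fs sample, with means of 7.67 ± 1.53 (SD, n = 3) and 14.3 ± 2.31 genes. As shares these were 18.3% ± 3.64 of the ZBTB genes in Fs and 34.1% ± 5.5 in Fts, while the share over all genes was 28.9% ± 3.06 and 29.4% ± 2.42. The ZBTB genes thus lay below all genes in each Fs sample and above them in each Fts sample. With 3 samples in each group, the smallest two-sided exact permutation p is 0.1, so no value here can pass 0.05. No p is given over the ZBTB genes, and groups that do not overlap are counted beside the share of all genes that do the same. In bulk sperm RNA, fewer cells that carry an mRNA and less of it in each cell cannot be told apart.

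Single ZBTB genes carried few peaks. The Fs samples had 7, 9 and 10 peaks on ZBTB genes (8.67 ± 1.53) and the Fts samples 16, 18 and 20 (18 ± 2), at most 2 on a gene in any sample. The lists themselves held 8015, 10378 and 10335 peaks in Fs and 9682, 11510 and 11982 in Fts, so the ZBTB peaks made up 0.873, 0.867 and 0.968 of every 1000 peaks in Fs and 1.65, 1.56 and 1.67 in Fts. These lists hold no measure of sequencing depth, and a number of peaks is a result of peak calling. In the read counts that the study reports, every Fts IP sample had fewer mapped reads than any Fs IP sample. The share of reads that mapped was lower in every Fts sample, for IP and for input. Mapped input reads overlapped between the groups. What these differences did to the peaks was not tested. Each peak has a MACS score, read here as 10 times -log10 of its p-value, a scale that the values fit and the sources used here do not spell out. By this scale 43 of the 80 ZBTB peaks had a p-value above 0.05, 26 reached a score of 20 (p-value 0.01) and 20 reached 50 (p-value 1e-05). Of peaks that reached 50, the Fs samples had 2, 1 and 2 and the Fts samples 3, 6 and 6, so the groups stayed apart on fewer peaks. Over the whole lists, 16.5% ± 1.3 of peaks reached 50 in Fs and 23.3% ± 3.47 in Fts, so high scores were more frequent in Fts beyond the ZBTB genes. When each list was cut to its 8015 highest peaks, the mean difference was 3.67 peaks, against 9.33 in the full lists.

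A peak in any of the 6 samples was found in 23 ZBTB genes (54.8%), close to the 56.6% of all genes. Of these, 10 had peaks in Fts alone, 3 in Fs alone (ZBTB7C, ZBTB8B and ZBTB17) and 10 in both. The mean number of peaks was higher in Fts in 16 genes, higher in Fs in 4 and equal in 3. In 7 of the ZBTB genes the peak was in 1 sample only. The Fts lists were longer, with a mean of 11058 peaks against 9576 in Fs. How many of all genes leaned to either group by these measures was not counted, so they are not read as a trait of the family.

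**Figure D1:**
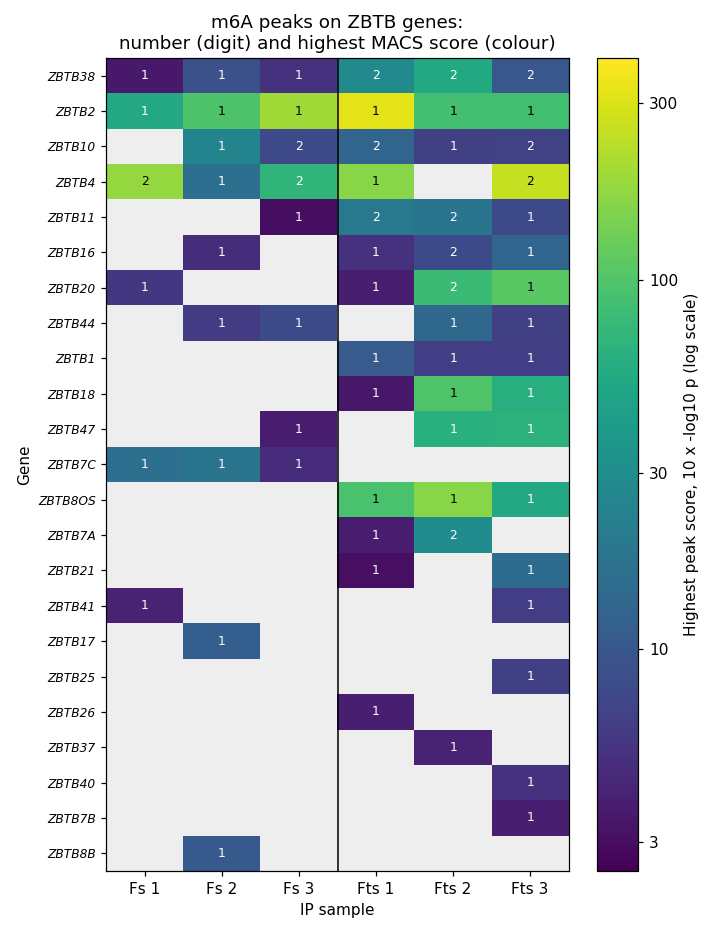
Number of m6A peaks (digit) and highest MACS score (colour, log scale) on each of the 23 ZBTB genes with a peak, by IP sample; grey cells had no peak. ZBTB38 and ZBTB2 had a peak in all 6 samples, and ZBTB1, ZBTB18 and ZBTB8OS had peaks in the 3 Fts samples and in no Fs sample.

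The number of peaks was higher in every Fts than in any Fs sample in 4 of the 23 genes with a peak, ZBTB1, ZBTB18, ZBTB38 and ZBTB8OS. Over all 11705 genes with a peak, 8.98% did so. The reverse was found in ZBTB7C alone, 1 of 23, against 5.36% of all genes with a peak. By the highest score on the gene, 6 of 23 were higher in every Fts sample, the same 4 with ZBTB11 and ZBTB16, against 13.2% of all genes, and 1 of 23, ZBTB7C, was higher in every Fs sample, against 10.7%. The shares of ZBTB genes toward Fts, 17.4% by number and 26.1% by score, lay above those of all genes, and rest on few genes. With a minimum score of 20 or 50, ZBTB8OS alone was left among the 4, and ZBTB7C was lost. At these limits no BTB-zinc finger gene of the set had peak numbers that did not overlap between the groups.

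When peaks of the 6 lists were merged where they overlapped, the ZBTB genes held 38 regions, of which 16 had a peak in 1 sample. A peak in 3 Fts samples and no Fs sample was found in 5 of 38 regions, on ZBTB1, ZBTB11, ZBTB18, ZBTB38 and ZBTB8OS, against 6.82% of all 26095 regions on mRNA exons. The reverse held for 2 of 38, on ZBTB4 and ZBTB7C, against 3.63%. A peak in all 6 samples was found in 1 of 38, on ZBTB2, against 3.31%. Without Fts3, the count of regions in every Fts and no Fs sample was 8.

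The groups also differed in where on the gene the peaks lay. In Fts most ZBTB peaks lay on long exons, and in Fs most lay on short ones. Exons of at least 1000 nt held 28.6%, 22.2% and 40% of the ZBTB peaks in Fs and 56.2%, 66.7% and 70% in Fts. The groups did not overlap, with means of 30.3% ± 9.01 and 64.3% ± 7.17, while over all genes the share was 18.9% ± 0.316 in Fs and 17.4% ± 0.288 in Fts. Such exons make up 86.4% of the transcript length of the ZBTB genes and 56.3% over all genes. The shares of peaks thus lay below the shares of length in every sample, and the difference is between the groups. The median exon under a ZBTB peak had 320 ± 108 nt in Fs and 1446 ± 131 nt in Fts, against 188 ± 3 and 186 ± 1.53 nt for all genes. The ZBTB peaks were also longer in Fts, with a median of 751 ± 165 nt against 187 ± 50.9 nt. This comparison was chosen after the data were seen. At a minimum score of 50 the shares on long exons were 50%, 0% and 50% in Fs and 33.3%, 66.7% and 66.7% in Fts, so the groups overlapped, and the difference of 34 percentage points became 22.2.

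**Figure D2:**
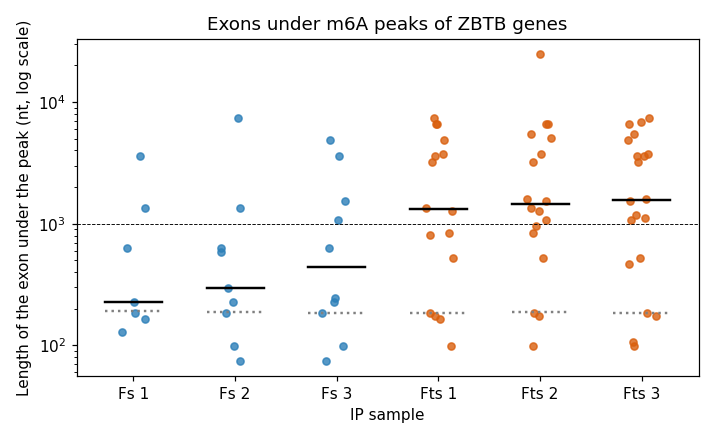
Length of the exon (nt, log scale) under each m6A peak of the ZBTB genes, by IP sample. Points are peaks, solid lines their median in the sample, dotted grey lines the median of all genes, and the dashed line marks 1000 nt; the medians of ZBTB peaks are 226 to 438 nt in Fs and 1314 to 1576 nt in Fts.

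The long coding exon itself was then measured in the 29 ZBTB genes that have one. It carried a peak in 1, 1 and 3 of them in Fs and in 7, 8 and 10 in Fts, or 5.75% ± 3.98 and 28.7% ± 5.27. In the other 2549 genes with a long coding exon the share also lay higher in every Fts sample, 15.1% ± 1.99 against 10.2% ± 1.56. Peaks covered 2.59% ± 2.65 of the bases of these exons in the ZBTB genes in Fs and 21.3% ± 5.33 in Fts. In the other genes they covered 4.08% ± 0.552 and 10.3% ± 2.01. Both sets of genes thus had more of the long coding exon under peaks in Fts, and whether the ZBTB genes gained more than the others was not tested. Of 12 ZBTB genes with any cover there, 3 (ZBTB1, ZBTB18 and ZBTB38) had more in every Fts than in any Fs sample, against 17.8% of 822 genes, and 0 of 12 had the reverse, against 5.11%.

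**Figure D3:**
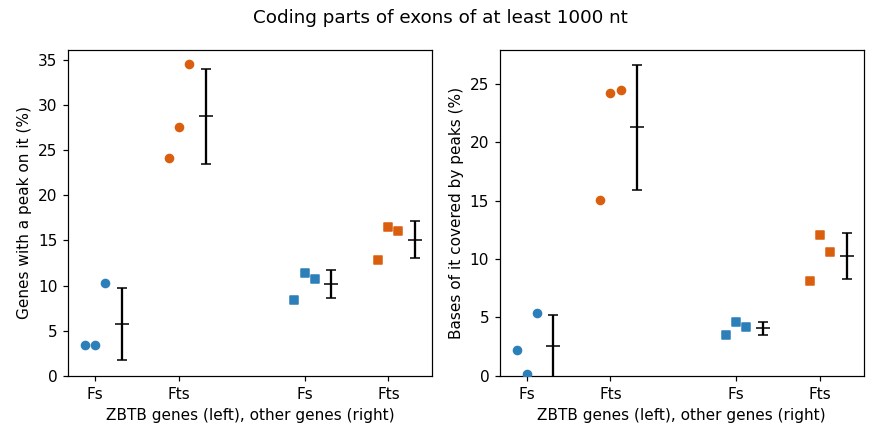
Left, genes with a peak on the long coding exon (%); right, bases of that exon covered by peaks (%), in 29 ZBTB genes and 2549 other genes. Points are the 3 samples of a group and black bars the mean with SD; the ZBTB genes went from 5.75% to 28.7% of genes and the other genes from 10.2% to 15.1%.

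Among the ZBTB proteins that bind methylated DNA, ZBTB38 had peaks on its coding exon in Fts and not in Fs. ZBTB38 lies on chromosome 13 from 82053887 to 82195321 and has its whole coding sequence of 3594 nt in exon 5. In Fs its peaks lay on exons outside the longest coding transcript, with scores of 3.56, 8.74 and 5.19, and covered none of the coding exon. In Fts peaks covered 54.4%, 78.2% and 29.8% of the coding exon. The region shared by the 3 Fts samples, chr13:82190832-82192115, had scores of 28.63, 54.39 and 9.94. A further coding region of the exon, chr13:82188939-82190463, had 19.43 in Fts1 and 6.98 in Fts2 and no peak in Fts3. The other Fts3 peak, with a score of 4.08, lay on an upstream exon that the longest coding transcript lacks, at chr13:82176123-82176268, and with it Fts3 reached its 2 peaks on the gene.

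ZBTB4, also a methyl-CpG binder, had a region that went the other way. On exon 3, chr12:52764930-52765541 on the minus strand, the same 612 nt of coding sequence had a peak in every Fs sample, with scores of 45.12, 16.13 and 31.91, and in no Fts sample. On its long coding exon, exon 7, both groups had peaks, with scores of 176.93 and 68.55 in Fs1 and Fs3, 162.62 and 255.55 in Fts1 and Fts3, and none in Fs2 or Fts2. The groups overlapped there, with 60.2%, 0% and 73.2% of the exon covered in Fs and 87.6%, 0% and 91.1% in Fts. ZBTB33, known as Kaiso and the remaining methyl-CpG binder of the family, had no peak in any sample.

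Of 9 ZBTB genes of lymphoid and myeloid development, 1, 2 and 0 had a peak in Fs and 4, 4 and 5 in Fts. Over all 42 ZBTB genes the counts were 6, 9 and 8 in Fs and 13, 13 and 17 in Fts, so the share in Fs2 was close to that of the family. ZBTB1, which lymphocytes need to develop, had no peak in Fs and a single coding peak in each Fts sample, at chr7:88591261-88592809, with low scores of 10.66, 6.38 and 6.44. These peaks covered 70.5%, 77.9% and 50.9% of its 1898 nt long coding exon. ZBTB7A, a repressor of fetal globin, had peaks in Fts1 and Fts2 that covered 51.7% and 63.9% of its long coding exon, with scores of 3.79 and 29.54 on it, and none in Fs. ZBTB7B, which sets the helper T cell fate, and ZBTB25 each had a peak in Fts3 only, with scores of 3.81 and 6.60 that covered 100% and 75.4% of the exon.

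ZBTB16 had weak peaks throughout. Near the start of its coding sequence, at chr9:41643139-41643692, Fs2 had a score of 4.87, and Fts1 and Fts2 had 5.18 and 7.83. By its stop codon, at chr9:41833747-41834317, Fts2 and Fts3 had scores of 3.68 and 13.11 and no Fs sample had a peak. Its highest score lay higher in each Fts sample than in any Fs sample, by a small margin. ZBTB20, a repressor known from liver and brain, had an Fts peak on exon 5 of 6 at chr13:145629993-145631582, with scores of 78.83 and 108.22 in Fts2 and Fts3, and no peak there in Fts1 or in Fs. The peak covered 99.1% of the 1605 nt of that exon in both samples. Its other peaks were weak, at the start codon on exon 3, where Fs1 had 5.67 and Fts1 had 3.85, and on exon 6, where Fts2 had 13.00. The study lists a ZBTB20 site at the 5′ end of exon 5 among its most increased sites in Fts.

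ZBTB17, known as MIZ-1 and a partner of MYC, had a peak with a score of 11.37 in Fs2 and no other sample, on exon 11 of 16. ZBTB32 and ZBTB46, which act in activated lymphocytes and in dendritic cells, had none. ZBTB17 is unlike most of the family, since its longest coding part of an exon is 301 nt.

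ZBTB18, a repressor that neurons need to mature, had peaks over most of its coding sequence in each Fts sample. It has its coding sequence of 1569 nt in exon 3 of 3 and had no peak in Fs. In Fts, peaks at chr10:16918003-16919557 had scores of 3.48, 98.74 and 60.64 and covered 51.7%, 95.2% and 98.2% of the coding part. The peak of Fts1 was thus weaker and shorter than those of Fts2 and Fts3. ZBTB42, known from muscle, and ZBTB45, known from glia, had no peak in any sample.

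Of the genes for genome stability and telomeres, ZBTB10, which binds telomeric repeat variants, had peaks in both groups. Its exon 3, the 99 nt of chr4:56149638-56149736, was a peak from end to end in 5 samples, with no peak and scores of 24.82 and 4.66 in Fs and 13.06, 6.62 and 6.81 in Fts. The groups overlapped. ZBTB40 had a score of 5.18 in Fts3 alone. ZBTB24, mutated in a syndrome of immunodeficiency and centromere instability, and ZBTB48, which limits telomere length, had no peak.

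The remaining genes had peaks of several kinds. ZBTB11 had a coding peak over the whole 176 nt of exon 10, chr13:157456683-157456858, in each Fts sample, with scores of 19.31, 11.71 and 7.63, and none there in Fs. On its exon 4 of 839 nt, Fts1 and Fts2 had 13.70 and 17.85. Fs3 had a peak on exon 6 with a score of 3.06. ZBTB47 had scores of 63.07 and 64.84 on its long coding exon in Fts2 and Fts3 and 3.66 in Fs3, with 90.7%, 99.1% and 61.2% of the exon covered. ZBTB44 had 13.76 and 6.56 in the same Fts samples and 7.84 in Fs3, covering 100%, 72% and 31.9%, and a peak of 6.11 in its 3′UTR in Fs2. In these 2 genes Fts1 had no peak, so the groups overlapped. ZBTB21 had a coding peak with scores of 3.09 and 15.07 in Fts1 and Fts3 on 8.71% and 8.61% of its 3204 nt long coding exon.

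**Figure D4:**
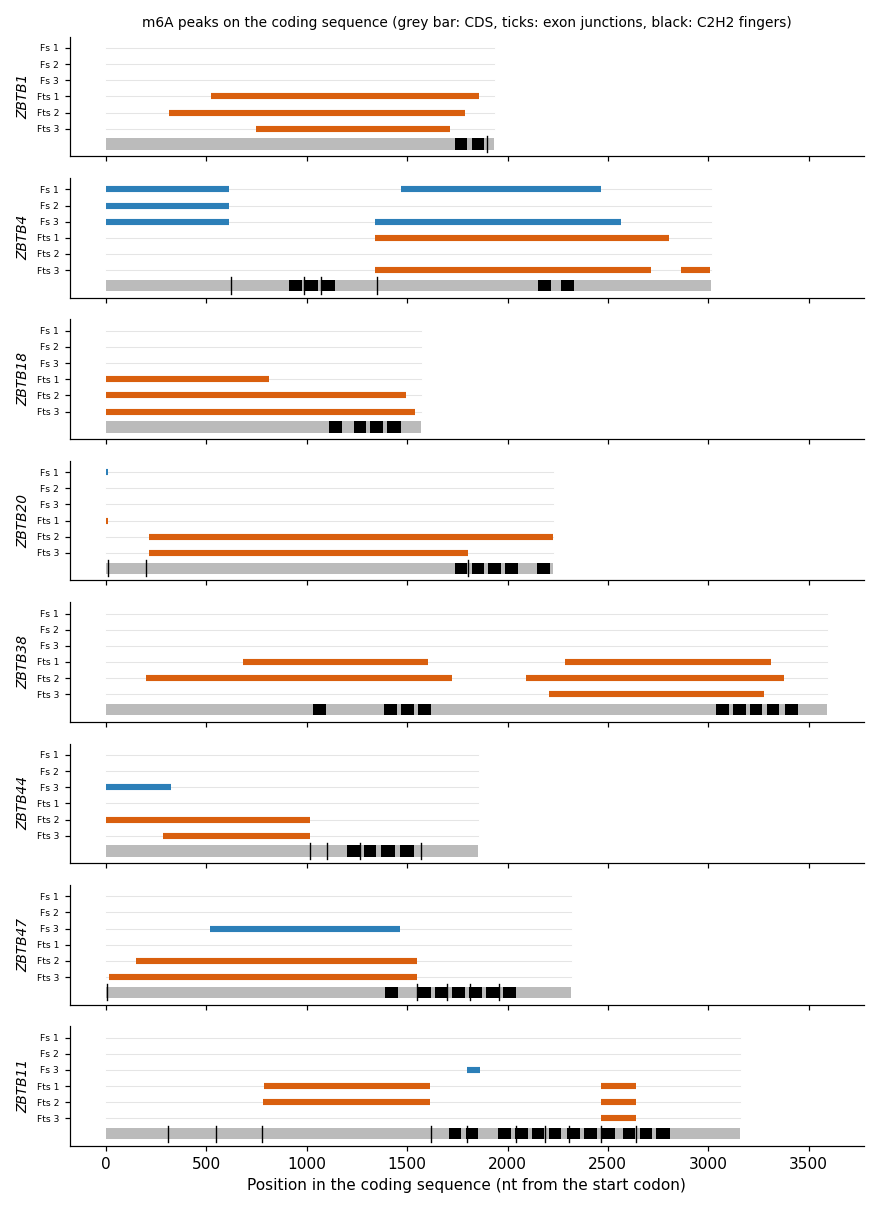
Peaks of the 6 IP samples (blue Fs, orange Fts) on the coding sequence of 8 ZBTB genes, in nt from the start codon; the grey bar is the coding sequence, ticks are exon junctions and black boxes C2H2 zinc fingers. Fts peaks run over 51.7% to 98.2% of the coding exon of ZBTB18, where Fs has none, and the peaks of ZBTB4 exon 3 are in Fs alone.

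ZBTB2 had a peak in every sample, at the 3′ end of a 185 nt exon at chr1:14885960-14886144 that is not part of its longest coding transcript. The scores were 53.58, 96.21 and 192.95 in Fs and 320.42, 88.40 and 85.70 in Fts, so the groups overlapped. The listed peaks were 55, 2 and 22 nt long in Fs and 9, 153 and 185 nt in Fts, since each ended at the exon end. Its own long coding exon had no peak. ZBTB7C was the only ZBTB gene with a peak in each Fs sample and none in Fts, on a 226 nt exon outside its longest coding transcript, chr1:97939040-97939265, with scores of 15.94, 17.76 and 4.78. ZBTB8OS, the archease gene, had a peak on its first exon, in the 5′UTR, in each Fts sample, with scores of 93.11, 161.48 and 53.16, and none in Fs. These peaks started at 88986475 on chromosome 6 and reached past 88986999, where the RefSeq gene begins on the minus strand. ZBTB8B, ZBTB26, ZBTB37 and ZBTB41 had peaks with scores from 3.81 to 10.62 in 1 or 2 samples each.

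On the longest coding transcript, 17 Fs peaks and 49 Fts peaks could be placed by their midpoint, and 14 lay on other exons. The coding sequence held 14 of 17 placed peaks in Fs and 39 of 49 in Fts, or 1.96 and 2.63 times the number that the length of the transcripts gives. Its share was 80.6% ± 17.3 in Fs and 79.6% ± 2.44 in Fts, against 70.6% ± 0.655 and 74.8% ± 0.445 over all genes, and the ZBTB groups overlapped. Within 100 nt of the stop codon, Fts had 6 peaks, on ZBTB4, ZBTB7A, ZBTB10 and ZBTB16, and Fs had 0. An Fs3 peak with a score of 7.72 in the same region of ZBTB10 had its midpoint just outside this limit and was placed in the coding sequence. The 3′UTR, which made up 46.7% of the length in Fs and 49.7% in Fts, held 1 peak in Fs and 0 in Fts.

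Within the coding sequence, the peaks lay mostly outside the zinc fingers. A C2H2 pattern was found in the translated coding sequence of 41 of the 42 genes, 1 to 14 times, and not in ZBTB8OS. Of 57 peaks with their midpoint in coding sequence, near the codons or not, 5 were centred in the zinc finger array, against 10.1 by length. These 5 lay in regions with a peak in 1 sample, on ZBTB11, ZBTB17, ZBTB20 and ZBTB41. A region with a peak in several samples counts once for each sample, in this measure and by bases. Whether the array is also low when each region counts once was not tested. By bases, in the genes with a coding peak, 22.4% of the array and 37.7% of the other coding sequence lay under a peak, a ratio of 0.595, and the ratio was below 1 in each of the 6 samples (0.246 to 0.748). The measure by bases was chosen after the data were seen. By centred peaks the ratio was above 1 in Fs1 and Fs2, which had 3 and 4 coding peaks.

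GGACT was searched on the transcript strand only. It was found in 19 of the 38 ZBTB regions (50%) and in 22.4% of all 26095 regions, but the ZBTB regions had a median of 542 nt and all regions 162 nt, so these shares are not of equal lengths. The wider consensus of m6A (2 purines, then AC, then any base but G), which includes GGACT, came 1.35 times per 100 nt in the ZBTB regions and 1.38 times in all regions. ZBTB18 had 3 GGACT and ZBTB1 had 0 in regions of 1555 and 1549 nt, both with peaks in the 3 Fts samples alone. ZBTB10 exon 3 had neither GGACT nor the wider consensus in its 99 nt.

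The 19 genes with no peak in any sample were ZBTB3, ZBTB5, ZBTB6, ZBTB8A, ZBTB9, ZBTB12, ZBTB14, ZBTB22, ZBTB24, ZBTB32, ZBTB33, ZBTB34, ZBTB39, ZBTB42, ZBTB43, ZBTB45, ZBTB46, ZBTB48 and ZBTB49. A long coding exon was as frequent in them, 13 of 19 (68.4%), as in the 23 genes with a peak, 16 of 23 (69.6%). Their transcripts were shorter, with a median of 3639 nt against 7297 nt. That a gene is missing from the lists does not show that its mRNA lacked m6A.

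The genes that work with the ZBTB family or share its BTB domain were listed for comparison. Of 8 BTB-zinc finger genes with other names, 2, 3 and 1 had a peak in Fs and 1, 2 and 1 in Fts. ZNF131, 1 of the 3 with a peak in any sample, had peaks in Fs alone (1, 1 and 2). Over all genes with a peak, 5.36% had more in every Fs sample. Of 37 KLHL genes, which carry a BTB domain and bind the ubiquitin ligase scaffold CUL3, 8, 12 and 9 had a peak in Fs and 7, 9 and 9 in Fts. Both lists overlapped between the groups. Of 17 KLHL genes with a peak, KLHL32 had more in every Fts sample, and KLHL20 and KLHL31 had more in every Fs sample. Over all genes with a peak these shares were 8.98% and 5.36%, so the KLHL counts are too small to set apart from them. The 11 KLHL genes with a long coding exon had a peak there in 1 gene in each Fs sample and in 0 in each Fts sample. Of 15 genes for corepressors and CUL3, 8, 9 and 7 had a peak in Fs and 8, 12 and 9 in Fts, and 3 of the 13 with a peak in any sample, SIN3A, NCOR1 and HDAC4, had more peaks in every Fts than in any Fs sample, against the 8.98% of all genes given above. SIN3A, the scaffold of a histone deacetylase complex, had 1, 1 and 2 peaks in Fs and 7, 6 and 6 in Fts. NCOR1, a corepressor that binds BTB domains, had 0, 0 and 1 in Fs and 3, 8 and 2 in Fts. By highest score SIN3A, NCOR1, HDAC4 and BCORL1 lay higher in every Fts sample, and HDAC1 and HDAC3 in every Fs sample. HDAC1 had 107.74, 187.06 and 115.24 in Fs and 7.20, 38.26 and 19.48 in Fts. HDAC3 had 23.82, 17.40 and 14.93 in Fs and 0.00, 0.00 and 3.12 in Fts. By score, 13.2% of all genes with a peak lay higher in every Fts sample and 10.7% in every Fs sample.

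Markers of sperm and of other cells were read by the same measure, in which a peak is not a level of expression. Of 15 sperm markers, 3, 4 and 3 had a peak in Fs and 4, 4 and 5 in Fts, and AKAP4, ODF1, PRM1, TNP1, SMCP and OAZ3 had none. PRM2 (in Fts2), PRM3 (in Fts1 and Fts3) and TNP2 (in Fts3) had peaks with scores from 2075.39 to 3100.00, and none in Fs. The PRM2 and PRM3 peaks all had 3100.00, which may be the upper limit of the score, as the sources used here do not state its scale. AKAP3 had 2, 1 and 3 peaks in Fs and 0, 0 and 1 in Fts. The acrosomal protease gene ACR had 2 peaks in each Fs sample and 0 in Fts. ZPBP, another acrosomal gene, had 0 in Fs and 1, 2 and 2 in Fts, and ODF2, of the tail's outer dense fibres, had 0 in Fs and 3, 3 and 0 in Fts. Of 5 epithelial markers, 1, 1 and 2 had a peak in Fs and 3, 3 and 4 in Fts, with 1, 1 and 2 peaks in all against 6, 7 and 6. KRT8 had 0 in Fs and 3, 4 and 2 in Fts. CDH1 leaned the other way, with 0, 1 and 1 in Fs and 0, 0 and 1 in Fts, and EPCAM had none in any sample. Of 8 leukocyte markers, 0, 1 and 2 had a peak in Fs and 1, 2 and 2 in Fts, with CD14, CD79A, CSF1R and LYZ at 0. Of 6 Sertoli and Leydig cell markers, 0, 1 and 1 had a peak in Fs and 1, 2 and 1 in Fts, with SOX9 in the 3 Fts samples only and AMH and INHA at 0. As a list the epithelial markers had more peaks in Fts, as the ZBTB genes did. By peak number only KRT8 had groups that did not overlap. By highest score KRT8, KRT18 and KRT19 all lay higher in every Fts sample, which 13.2% of all genes with a peak did. KRT18 had 0.00, 0.00 and 3.70 in Fs and 6.60, 38.76 and 9.61 in Fts. KRT19 had 13.52, 0.00 and 0.00 in Fs and 107.05, 171.31 and 172.05 in Fts. The part of the epithelial markers in the result was not tested.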

How the data were processed

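Peak lists of 3 Fs and 3 Fts IP samples were used. Per the labels and the study's methods, the authors trimmed reads with cutadapt 1.9.3, aligned them to susScr11 (Sscrofa11.1) with Hisat2, called peaks with MACS in each sample against its input without pooling, and kept peaks on mRNAs with their own program. In the deposited lists many peaks end at an exon end, and no source used here says at which step. The authors deposited a MACS score with each peak. It is not scaled for depth, and it was used only to describe, rank or filter peaks. The authors' differential sites come from their own comparison of the groups and were not used for the values here. Sequencing reads and input libraries were not analysed here.

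Peaks were given to genes by an overlap of 1 bp or more with a same-strand mRNA exon (RefSeq, Sscrofa11.1). Its midpoint was placed on the longest coding transcript, with codon classes of 100 nt to each side. Sequences were read with pysam 0.24.0, and neighbouring C2H2 fingers were joined over linkers of up to 10 residues. The code was tested on simulated peak lists. The family and the gene lists were chosen with earlier results of these data known. Values per sample were given for genes whose groups do not overlap, that had a peak in all 6 samples, the 8 highest mean peak numbers, a region kept to 1 group, and ZBTB16, ZBTB20, ZBTB33, ZBTB4 and ZBTB38. The labels do not tie a sample to a boar, so the spread between samples may be in part technical. Alternatives were a minimum score of 20 or 50, equal peak numbers, joined peaks, codon classes of 200 nt, exons of at least 500 nt, the replicate block and the omission of each replicate.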

Additional observations from a re-analysis of the deposited data

How the results depend on the processing

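No result changed direction in any alternative run. A minimum score of 20 gave a difference (Fts minus Fs) of 3.67 ZBTB genes with a peak and 3.33 peaks, in place of 6.67 and 9.33, and a minimum of 50 gave 3.33 and 3.33. Equal peak numbers gave 2.67 and 3.67. Genes with more peaks in every Fts sample fell from 4 to 1 at either minimum score and to 2 with equal numbers (ZBTB16 and ZBTB8OS), and genes with more in every Fs sample from 1 to 0 in these 3 settings. Regions in 3 Fts and 0 Fs samples went from 5 to 1, 1 and 2, and regions in 3 Fs and 0 Fts samples from 2 to 0, 0 and 1. A minimum score of 50 gave 22.2 percentage points for the difference on long exons, in place of 34, and gave no value for the coding share. The ratio of peaks centred in zinc fingers was 0 at either minimum. The cause was not tested, apart from fewer peaks being counted.

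Leaving out each replicate gave 5.33 to 7.33 genes with a peak, 8.33 to 10.3 peaks, 4 to 6 genes with more in every Fts sample, 5 to 8 regions kept to Fts (8 without Fts replicate 3), 1 to 2 regions in all samples (2 without Fs replicate 1) and 30 to 38.9 points on long exons. Same-numbered samples did not deviate together over 11705 genes (correlations of 0.0103, -0.0143 and 0.0129), which cannot show whether they share a boar. The study states a paired design, but the labels do not tie a sample to a boar. For that reason the numbers were not taken as pairs. With the replicate block, 5 genes had more peaks in Fts in every pair. Without ZBTB8OS, 3 genes had more in every Fts sample.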
